A study of Mus musculus with 24 samples.

Results

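Myod1, Myf5, Myf6 and Myog encode the 4 myogenic regulatory factors, a family of muscle transcription factors, and were taken by symbol from the 24043 gene rows of a deposited expression table. The study measured gene expression by RNA-seq in C2C12, an established mouse myoblast line that proliferates in rich medium and forms myotubes when serum is lowered. Its question, from the series' own title, is how low oxygen alters the change that differentiation brings to expression and to a repressive histone mark. Of 24 samples, 8 are RNA-seq libraries, and the 16 chromatin and input samples were not analysed here. Growth medium was DMEM with 10% FBS and antibiotics, and the cells were kept below confluence. Differentiation medium was DMEM with 2% horse serum and an ITS supplement. Each medium was used at 21% oxygen (normoxia) and at 2% oxygen (hypoxia), which gives the 4 groups normoxic growth, normoxic differentiation, hypoxic growth and hypoxic differentiation, with replicates A and B in each. All groups come from 1 cell line. The design text calls A and B biological replicates, the labels do not say how the cultures were separated, and the p-values measure the spread between these libraries. The days in differentiation medium and the hours at 2% oxygen are not given in the sources used here.

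The 4 factors are basic helix-loop-helix proteins that bind DNA as dimers with E proteins, at the short palindrome called the E-box, and switch on muscle genes. Myf5 and Myod1 are known as the factors that commit cells to the muscle lineage and are present in dividing myoblasts. Myog, myogenin, is known as the factor that drives committed myoblasts into differentiation, and Myf6, also called MRF4, as a late factor of muscle fibres. Id proteins, which lack a DNA-binding region, hold E proteins away from them.

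The 250 bases before the start of Myog and of Myf5 are printed because these were the only 2 of the 4 factors matched in RefSeq on GRCm38.p6. The transcript of Myog moved the most of the 4 and that of Myf5 the least among those well detected. The windows are chr1:134289754-134290003 on the plus strand for Myog and chr10:107486135-107486384 on the minus strand for Myf5, written 5′ to 3′ along the gene, with capitals for the matches described next.
Myog: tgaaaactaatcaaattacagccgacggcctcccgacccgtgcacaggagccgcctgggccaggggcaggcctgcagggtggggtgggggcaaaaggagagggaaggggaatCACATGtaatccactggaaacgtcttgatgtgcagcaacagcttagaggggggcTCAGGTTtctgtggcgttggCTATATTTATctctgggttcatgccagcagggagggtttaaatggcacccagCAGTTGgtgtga
Myf5: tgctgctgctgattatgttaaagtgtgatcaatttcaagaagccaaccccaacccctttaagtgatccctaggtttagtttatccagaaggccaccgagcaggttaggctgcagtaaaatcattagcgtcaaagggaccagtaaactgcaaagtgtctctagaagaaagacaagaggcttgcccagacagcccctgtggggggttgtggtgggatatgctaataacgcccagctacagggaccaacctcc
Searched on both strands, the Myog window held 2 matches to the E-box motif CANNTG, at -138 to -133 with the letters CACATG and at -12 to -7 with CAGTTG, where -1 is the base just before the start. It held 1 MEF3 site (TCAGGTT, a motif known from muscle promoters) at -84 to -78 and 1 match to the MEF2 consensus at -64 to -55, with the letters CTATATTTAT. None of these overlapped another. The Myf5 window held none of the 3 motifs. Neither window held ACGTG or GCGTG, the cores of the site known to bind hypoxia-inducible factors. Of 32841 gene-start windows of the same length, 66.2% held an E-box, 7.03% the MEF2 consensus, 3.49% the MEF3 site, 16.6% ACGTG and 28.2% GCGTG. These matches describe letters and say nothing of binding in these cells.

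Values are FPKM, fragments scaled to transcript length and to the mapped fragments of the library, so levels of different genes can be set side by side. Between 14917 and 15672 genes per library were above 0. Relative sequencing depth, read from the size of the step that 1 fragment adds, ran from 0.633 in hypoxic differentiation B to 1 in hypoxic differentiation A. These 2 libraries also stood apart in cell cycle genes: 10 such genes summed to 132 FPKM in A and 375 FPKM in B, against 285 and 302 in normoxic growth, 93.7 and 98.5 in normoxic differentiation and 189 and 170 in hypoxic growth. All 6 skeletal myoblast markers, desmin (Des) and M-cadherin (Cdh15) among them, reached 1 FPKM in at least 1 library of every group, and their sum was 528 to 592 FPKM in normoxic growth, 1300 to 1310 in normoxic differentiation, 175 to 182 in hypoxic growth and 235 to 286 in hypoxic differentiation. These myoblast markers did not move together. Ncam1 stood at 35.3 and 36.1 FPKM in normoxic growth and at 55.8 and 56.2 in hypoxic growth, where the other 5 were lower. Vcam1 was lower in normoxic differentiation (25.5 and 25.3 FPKM) than in normoxic growth (62.4 and 68.4). In hypoxic differentiation Ncam1, Itga7 and Chrna1 were above hypoxic growth, while Des was below it, at 28.6 and 53.1 FPKM against 60.3 and 66.4. Of 25 markers of other cell types, 19 stayed under 1 FPKM in every library, 3 of them at 0. Among the 6 others, the tendon factor Scx stood at 67.0 and 66.1 FPKM in normoxic growth and at 30 FPKM or more elsewhere, the osteocalcin gene Bglap stood at 93.1 and 75.5 FPKM in normoxic differentiation, and the lysosomal gene Cd68 at 25.8 and 42.8 FPKM in hypoxic differentiation against 1.76 to 3.57 elsewhere, while the other immune markers Ptprc, Csf1r and Itgam stayed under 1 FPKM. In such bulk libraries, fewer cells with a transcript and less transcript per cell cannot be told apart.

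Myf5 had the narrowest range of the 3 well detected factors. Its level was 19.99 and 19.96 FPKM in normoxic growth A and B, 30.7 and 29.1 in normoxic differentiation, 9.89 and 9.55 in hypoxic growth, and 8.58 and 8.45 in hypoxic differentiation. No 2 groups overlapped, and both hypoxic groups lay below both normoxic groups. Such separation of groups of 2 is a description, here and for Myod1 and Myog, since its share over all genes was not counted. The group means were 19.97 ± 0.017 (SD, n = 2, as for every mean that follows), 29.9 ± 1.16, 9.72 ± 0.242 and 8.51 ± 0.0918 FPKM in the same order. The deposited values of Myf5 were whole multiples of 1 step per library, which gives 233 to 1087 fragments.

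Myod1 was the most abundant of the 4 in both growth medium groups and was present before differentiation began. Its level was 139 and 108 FPKM in normoxic growth, 180.5 and 172 in normoxic differentiation, 25.1 and 26.1 in hypoxic growth, and 6.95 and 11.8 in hypoxic differentiation. Again no 2 groups overlapped. In rank, counted from the most abundant gene of a library, Myod1 stood at 513 and 609 in normoxic growth and at 7102 and 5803 in hypoxic differentiation. The means were 123.4 ± 21.6, 176.0 ± 6.35, 25.6 ± 0.743 and 9.38 ± 3.44 FPKM, and the SD of 3.44 in hypoxic differentiation reflects a 1.7-fold gap between its libraries. Hypoxic differentiation held 266 fragments of Myod1 in A and 286 in B, and A is the deeper of these libraries.

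Myog covered the widest range of levels. It stood at 13.3 and 8.83 FPKM in normoxic growth, 2576 and 2642 in normoxic differentiation, 0.342 and 0.442 in hypoxic growth, and 4.49 and 2.14 in hypoxic differentiation. All 4 groups were apart, and in both normoxic differentiation libraries Myog was the 12th most abundant gene of the library, against rank 5332 and 6908 in normoxic growth and 12343 and 12085 in hypoxic growth. The means were 11.1 ± 3.19, 2609 ± 47.0, 0.392 ± 0.0712 and 3.32 ± 1.67 FPKM. Hypoxic growth rested on 9 and 11 fragments, with exact Poisson 95% intervals of 4.12 to 17.1 and 5.49 to 19.7, and hypoxic differentiation on 133 and 40. These intervals cover counting error only, since reads without molecular identifiers are not independent molecules.

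Myf6 was close to the detection limit outside normoxic differentiation. Its level was 0.179 and 0.276 FPKM in normoxic growth, 1.15 and 1.30 in normoxic differentiation, 0.0928 and 0.148 in hypoxic growth, and 0.0413 and 0.196 in hypoxic differentiation. In fragments these are 3 and 6, 19 and 27, 2 and 3, and 1 and 3. The groups other than normoxic differentiation lie next to or within each other. Each hypoxic library held 3 fragments or fewer, as did normoxic growth A. A difference of Myf6 between the hypoxic groups was not detectable at this depth. Its means were 0.227 ± 0.0686, 1.23 ± 0.108, 0.120 ± 0.0387 and 0.119 ± 0.109 FPKM.

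**Figure D1:**
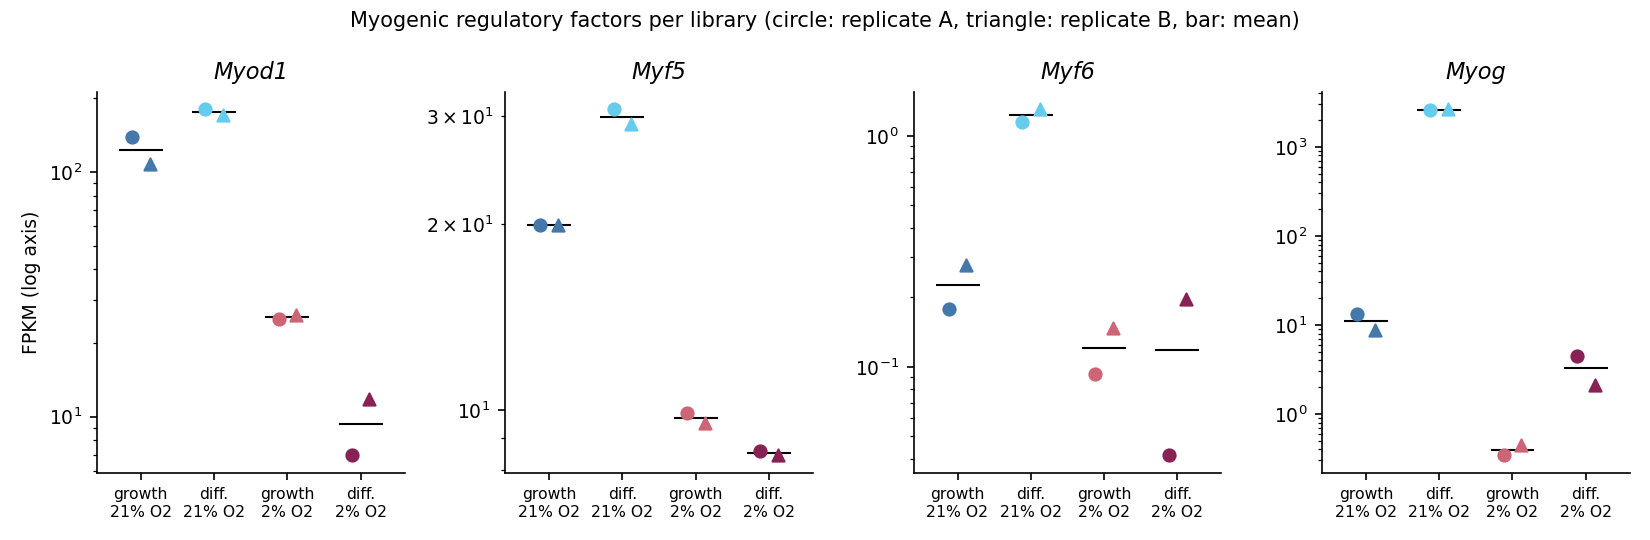
FPKM (log axis) of Myod1, Myf5, Myf6 and Myog in each of the 8 libraries, with growth and differentiation (diff.) medium at 21% and 2% oxygen along the horizontal axis, circles for replicate A, triangles for B and bars for the group mean. Every factor is highest in normoxic differentiation, and Myog there lies at 2576 and 2642 FPKM against at most 13.3 in any other library.

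Myod1, Myf5 and Myog shared the upper part of their order of groups and differed in the lower part. Myod1 and Myf5 ran from normoxic differentiation through normoxic growth and hypoxic growth to hypoxic differentiation. In Myog the hypoxic groups changed places, with hypoxic differentiation above hypoxic growth. The tests of neighbours in these orders follow by comparison. They are taken from limma fitted to log2(FPKM + 1) of the 12389 genes whose mean reached 1 FPKM in some group, with p-values adjusted by the Benjamini-Hochberg method over those genes and 0.05 as the threshold. Changes are on this log2 scale, which understates the change of a gene near or under 1 FPKM, so that an interaction can come out larger than the ratio of the FPKM folds. All 4 factors were among the tested genes, but Myf6 entered through normoxic differentiation alone and so had to differ there. Its tests are given as a description and it is left out of the counts. The 6 comparisons share libraries and are not independent of each other.

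Differentiation at 21% oxygen raised Myog and Myf5. Myog, the differentiation factor, was 235-fold higher in FPKM (log2 change 7.78 ± 0.28 SE, limma adjusted p 2.06e-06), and only 16 of the 12389 genes changed by more. Myf5 rose 1.5-fold (0.56 ± 0.08, adjusted p 0.000711). Myod1 stood 1.43-fold higher and its libraries did not overlap, but the change of 0.52 ± 0.22 (95% interval -0.02 to 1.05) did not pass (adjusted p 0.0782). Without either 1 of the hypoxic differentiation libraries in the shared estimate of spread the same change passed, with adjusted p 0.00872 without A and 0.00734 without B, and median-of-ratios scaling also took it past the threshold (0.79, adjusted p 0.00832).

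That comparison called many genes: of all tested genes 66.5% passed, 25.5% as higher and 41.0% as lower, so the rise of Myog is set apart by its size and not by having passed. The median gene moved by -0.20 here. Median-of-ratios scaling brings that median to 0.03 and the share of higher genes among those called from 38.4% to 53.6%. Myf6 had 46 fragments over both normoxic differentiation libraries against 9 in normoxic growth, a ratio per depth of 5.29 with a 95% counting interval of 2.56 to 12.3 (fitted change 0.86 ± 0.10, adjusted p 0.000403).

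Differentiation at 2% oxygen moved Myod1 and Myog in opposite directions. Myod1 fell 2.73-fold (-1.40 ± 0.22, limma adjusted p 0.00386). Myog rose 8.46-fold (1.58 ± 0.28, adjusted p 0.00561), to a level that was still under that of normoxic growth. Myf5 was 1.14-fold lower (-0.17 ± 0.08, 95% interval -0.36 to 0.01) and did not pass (adjusted p 0.117), and Myf6 showed no difference beyond its spread (-0.01 ± 0.10, adjusted p 0.981). In this comparison 40.9% of all tested genes passed, 23.3% as higher and 17.6% as lower. The libraries of hypoxic differentiation disagree in size: with A left out Myog was 5.45-fold higher (fitted 1.17, adjusted p 0.00589), and with B left out 11.5-fold (1.98, adjusted p 0.00102). The part of the difference in cell cycle genes between these libraries in these changes was not tested.

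Hypoxia in growth medium lowered Myod1, Myf5 and Myog in cells that had not been given differentiation medium. Myog fell by 3.09 ± 0.28 on the log2 scale (limma adjusted p 0.000363), from 11.1 to 0.392 FPKM, a ratio of 28.3. Myod1 was 4.82-fold lower (-2.21 ± 0.22, adjusted p 0.000546) and Myf5 2.05-fold lower (-0.97 ± 0.08, adjusted p 0.000236). Over all genes 41.4% passed, 13.5% as higher and 28.0% as lower, and the share of higher genes among those called was 32.6%, which median-of-ratios scaling moved to 43.4% and upper-quartile scaling to 49.3%. Myf6 had 5 fragments against 9, a ratio per depth of 0.512 with a counting interval of 0.135 to 1.7 (fitted change -0.13 ± 0.10, adjusted p 0.354).

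Hypoxia in differentiation medium gave the widest gaps. Myog was 787-fold lower than in normoxic differentiation (-9.30 ± 0.28, limma adjusted p 8.51e-07), the 6th largest change of the 12389 genes in either direction. This fold was 1221 with hypoxic differentiation A left out (fitted -9.70) and 580.6 with B left out (-8.89). Myod1 was 18.8-fold lower (-4.13 ± 0.22, adjusted p 1.05e-05), the 200th largest, and Myf5 was 3.52-fold lower (-1.70 ± 0.08, adjusted p 4.62e-06). Of the tested genes 65.2% passed, with 37.5% higher and 27.7% lower, so the 3 factors lay on the less frequent side. Higher genes made up 57.5% of those called, and 46.5% after median-of-ratios scaling. Myf6 had 4 fragments against 46, per depth 12.2-fold fewer with a counting interval of 4.46 to 46.7 (fitted change -1.0 ± 0.10, adjusted p 0.000206).

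The interaction, which is the change with differentiation at 2% oxygen minus that at 21%, was below 0 for Myod1, Myf5 and Myog. It was -6.20 ± 0.39 for Myog (limma adjusted p 5.18e-05), the 41st largest of all genes. For Myod1 it was -1.92 ± 0.32 (adjusted p 0.00259), the 1137th largest. For Myf5 it was -0.73 ± 0.11 (adjusted p 0.00168), the 5434th largest. The term of Myog depends on the pseudocount, since the rise at 2% oxygen starts from 0.392 FPKM. With a pseudocount of 0.1 FPKM it was -5.18 (limma adjusted p 0.000236). In FPKM, the fold of Myog at 21% oxygen was 27.8 times that at 2%. For Myod1 the term joins a fall at 2% oxygen with a value at 21% oxygen that did not pass, while for Myog it joins 2 rises of unequal size. The interaction passed in 54.1% of tested genes, 35.4% above 0 and 18.7% below 0. Genes above 0 made up 65.5% of those that passed, which fell to 47.3% with median-of-ratios factors and to 53.6% with upper-quartile factors. Myf6 had a fitted term of -0.86 ± 0.15 (adjusted p 0.00301).

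Hypoxic differentiation was last set against normoxic growth, the state from which differentiation starts. Myod1 was 13.2-fold lower (-3.61 ± 0.22, limma adjusted p 4.53e-05), Myog 3.34-fold lower (-1.52 ± 0.28, adjusted p 0.00455) and Myf5 2.35-fold lower (-1.14 ± 0.08, adjusted p 6.14e-05). For Myog the fold was 5.19 without hypoxic differentiation A (fitted -1.92) and 2.47 without B (-1.11). Myf6 overlapped between the groups (-0.14 ± 0.10, adjusted p 0.325). Here 48.6% of tested genes passed, 20.8% as higher and 27.8% as lower. So every pair of neighbouring groups in the order of Myog passed the test, whereas the upper pair of Myod1 and the lower pair of Myf5 did not.

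**Figure D2:**
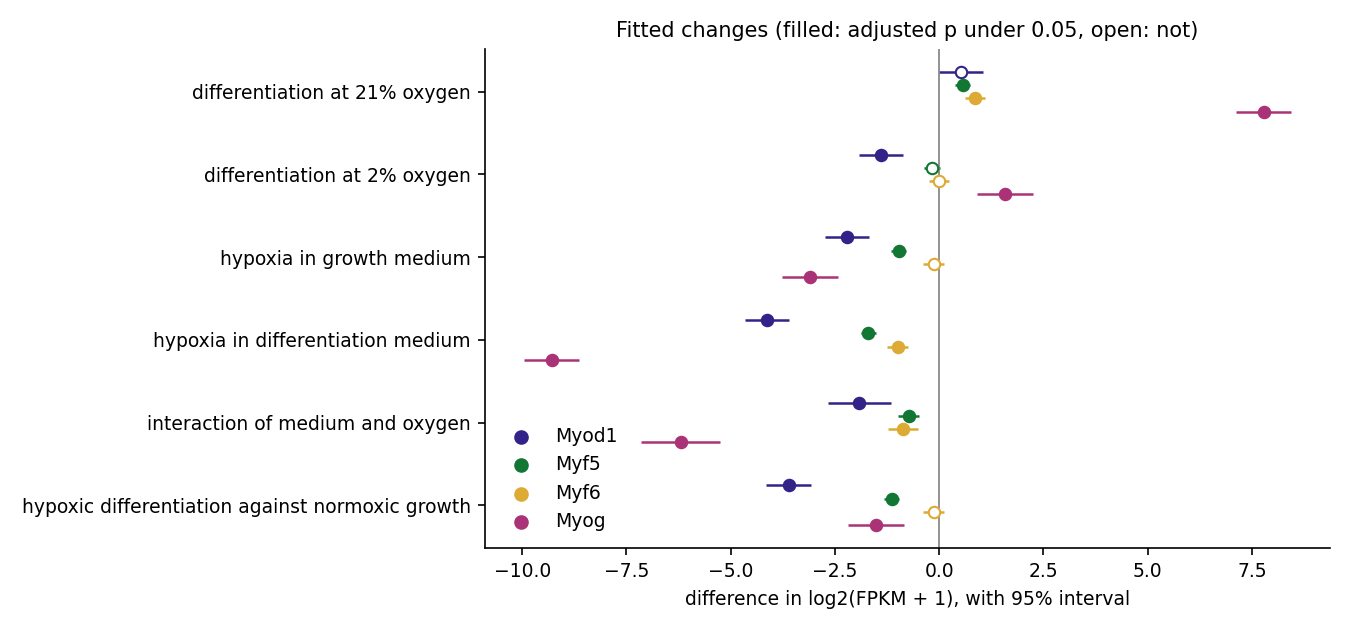
Fitted change in log2(FPKM + 1) of each factor in the 6 comparisons (horizontal axis) with 95% intervals, filled where the limma adjusted p is under 0.05 and open where it is not. Myog reaches 7.78 for differentiation at 21% oxygen and -9.30 for hypoxia in differentiation medium, while the points of Myf5 lie between -1.70 and 0.56.

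Because FPKM is per length, the make-up of the family can be given as each factor's share of their summed FPKM. The sum was 172.2 and 137.2 FPKM in normoxic growth, 2788 and 2844 in normoxic differentiation, 35.41 and 36.28 in hypoxic growth, and 20.06 and 22.59 in hypoxic differentiation. Myod1 led in normoxic growth with 79.7 ± 1.22% and in hypoxic growth with 71.4 ± 0.856%. In normoxic differentiation Myog took 92.6 ± 0.368% of the sum, although the level of Myod1 there was no lower than before, so the share of Myod1 was 6.25 ± 0.313%.

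In hypoxic differentiation no factor held most of the sum in both libraries. Myod1 had 43.5 ± 12.5%, Myf5 40.1 ± 3.79% and Myog 15.9 ± 9.16%, and the leading factor was Myf5 in A (42.7%) and Myod1 in B (52.3%). FPKM of Myod1 per FPKM of Myf5, the ratio between the factors of commitment, was 6.94 and 5.42 in normoxic growth and 5.87 and 5.89 in normoxic differentiation. This ratio was 2.54 and 2.74 in hypoxic growth and 0.81 and 1.4 in hypoxic differentiation, so all 4 hypoxic libraries lay below all 4 normoxic ones. Myog per Myod1 was 0.0962 and 0.0816 in normoxic growth, 14.3 and 15.4 in normoxic differentiation, 0.0136 and 0.0169 in hypoxic growth, and 0.647 and 0.181 in hypoxic differentiation. Relative to Myod1, then, Myog was higher in hypoxic differentiation than in normoxic growth, while its own level was lower. Shares of Myf6 were under 1% in every library. No test was made on shares, which are tied to each other.

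**Figure D3:**
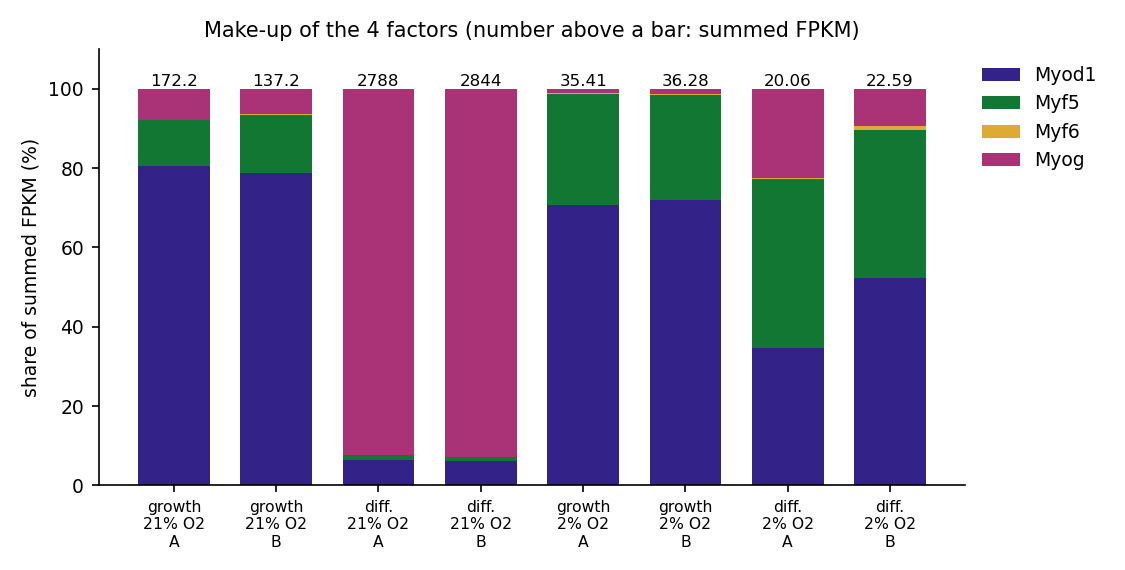
Share (%) of Myod1, Myf5, Myf6 and Myog in their summed FPKM for each of the 8 libraries, with that sum in FPKM above each bar. Myog fills 92.6% on average in normoxic differentiation, and Myf5 takes 27.1% in hypoxic growth and 40.1% in hypoxic differentiation against 13.1% in normoxic growth.

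The partners were described from lists of textbook genes. The E protein partners are Tcf3, Tcf4 and Tcf12, which form the dimers with the 4 factors. Tcf3, which encodes E12 and E47, stood at 60.7 and 53.4 FPKM in normoxic growth, 20.8 and 20.5 in normoxic differentiation, 44.1 and 45.9 in hypoxic growth, and 38.1 and 39.0 in hypoxic differentiation. It was lowest where Myog was highest (differentiation at 21% oxygen -1.42 ± 0.08, limma adjusted p 1.6e-05), and was higher in hypoxic than in normoxic differentiation (0.87 ± 0.08, adjusted p 0.000131). Tcf12 was highest in normoxic growth, at 52.6 and 64.0 FPKM, and lowest in hypoxic differentiation, at 22.2 and 22.7. Hypoxic differentiation was below normoxic growth in all 3 E protein partners, with a median change of -1.19 against -0.04 over all genes, of which 27.8% were lower. In growth medium hypoxia lowered all 3 as well (median -0.69, all genes -0.14, with 28.0% of all genes lower), but 1 of 3 after upper-quartile scaling or without either 1 of the hypoxic growth libraries.

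Inhibitors of the factors were 16 genes, of which 14 were tested. Id1 and Id3, which capture E proteins, were lowest in hypoxic differentiation. Id3 stood at 444 and 359 FPKM in normoxic growth, 117 and 112 in normoxic differentiation, 116 and 114 in hypoxic growth, and 13.8 and 26.1 in hypoxic differentiation, a change of -4.32 ± 0.26 between normoxic growth and hypoxic differentiation (limma adjusted p 4.31e-05). Id1 was 48.6 and 46.7 FPKM in normoxic and 4.5 and 9.45 in hypoxic differentiation (-2.68 ± 0.28, adjusted p 0.000197). Id1 and Id3 were thus lowest, in both libraries, in the group in which Myod1 was lowest. Id2 also had its lowest mean there, 32.6 FPKM, and was below normoxic growth (-0.91 ± 0.18, limma adjusted p 0.00567). Its libraries there, at 26.3 and 38.9 FPKM, overlapped normoxic differentiation (39.5 and 35.6). Id2 was highest in hypoxic growth, at 90.0 and 79.1. Id4, untested and under 1 FPKM in every library, was not lowest there, at 0.237 and 0.889.

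Bhlhe40, a repressor known to respond to low oxygen, went the other way. It stood at 19.1 and 17.7 FPKM in normoxic growth, 68.8 and 60.1 in normoxic differentiation, 100.4 on average over both libraries of hypoxic growth, and 121 and 107 in hypoxic differentiation (hypoxia in growth medium 2.39 ± 0.10, limma adjusted p 2.56e-05). Its relative Bhlhe41 was highest in hypoxic differentiation, at 34.2 and 24.9 FPKM against 9.29 and 9.38 in normoxic differentiation (1.55 ± 0.14, adjusted p 0.000116). Twist2, a helix-loop-helix repressor of mesenchymal cells, was lowest in normoxic differentiation, with 2.97 and 2.64 FPKM against 28.2 and 23.9 in normoxic growth and 9.77 and 9.78 in hypoxic differentiation. Mdfi, which encodes the inhibitor I-mfa, instead followed the factors: 4.26 and 2.29 FPKM in normoxic growth, 13.4 and 14.4 in normoxic differentiation, 1.52 and 0.868 in hypoxic growth, and 0.771 and 0.985 in hypoxic differentiation (hypoxia in differentiation medium -2.99 ± 0.24, adjusted p 6.44e-05).

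As a list the inhibitors moved both ways. Msc entered the test through normoxic differentiation alone, which leaves 13 genes for comparisons with that group. Hypoxia in differentiation medium raised 3 and lowered 8 of these 13 (median -1.05, all genes 0.15), where 37.5% of all tested genes were higher and 27.7% lower. Hypoxic differentiation against normoxic growth had 2 higher and 9 lower of the 14 (median -0.92, all genes -0.04), where 20.8% of all genes were higher and 27.8% lower. Differentiation at 21% oxygen raised 5 and lowered 6 of the 13 (median -0.34, all genes -0.20), where 25.5% of all genes were higher and 41.0% lower, with 3 lower in place of 6 without normoxic growth A or without normoxic differentiation B, and with 7 higher and 4 lower of all 14 after median-of-ratios scaling.

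**Figure D4:**
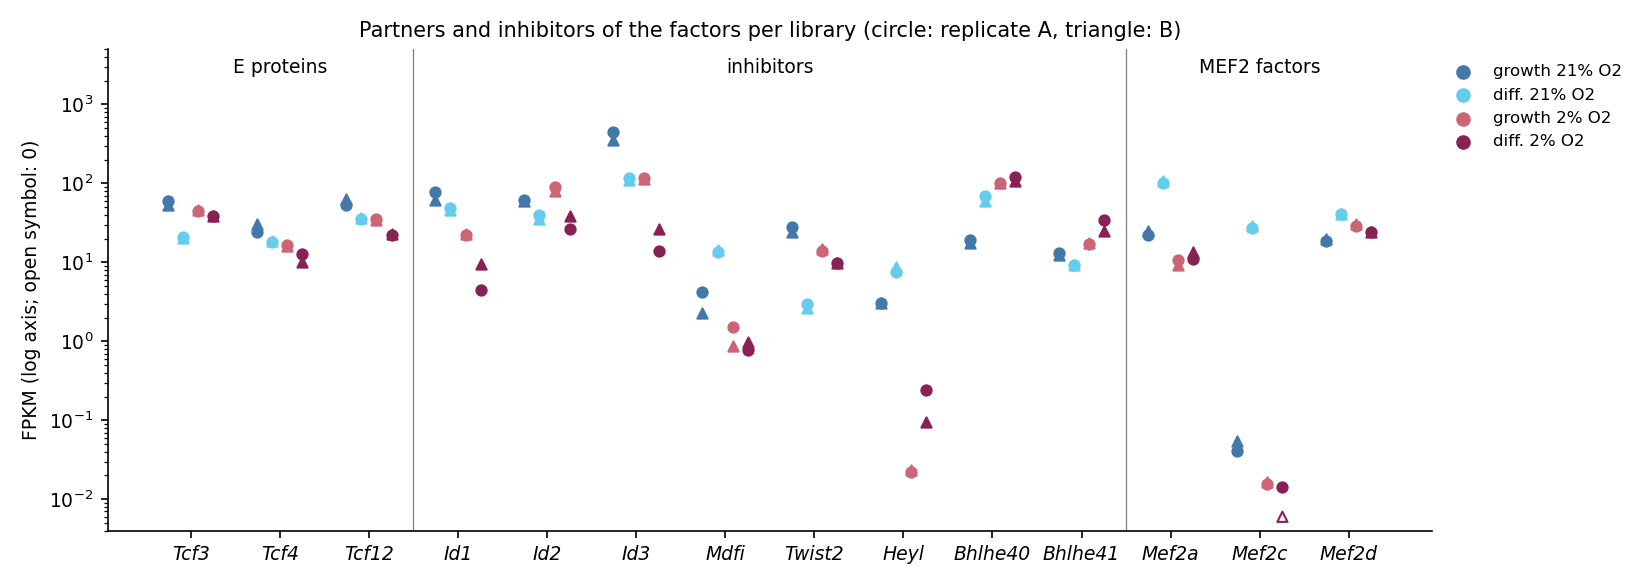
FPKM (log axis) per library of E protein partners, of 8 of the inhibitors and of MEF2 factors, with circles for replicate A, triangles for B and an open symbol for a value of 0. Id3 is lowest in hypoxic differentiation, Bhlhe40 is lowest in normoxic growth, and Mef2c exceeds 1 FPKM in normoxic differentiation alone.

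Upstream factors, such as Pax7, Eya1 and Pitx3, that act before or beside the 4 factors, were 15 genes, of which 10 were tested. Pax7, the factor of muscle stem cells, stood at 26.6 and 27.3 FPKM in normoxic growth, 15.9 and 15.1 in normoxic differentiation, 15.6 and 15.9 in hypoxic growth and 10.2 and 8.96 in hypoxic differentiation. Pitx3 stood at 10.3 and 8.86 FPKM in normoxic growth and 1.28 and 2.01 in hypoxic growth (-2.01 ± 0.16, limma adjusted p 0.000232), while Six5 rose, from 8.36 and 7.68 to 12.6 and 12.2 FPKM (0.58 ± 0.13, adjusted p 0.0117). In growth medium, where 28.0% of all tested genes were lower and 13.5% higher, hypoxia lowered 7 of the 10 upstream factors and raised 1 (median -0.83, all genes -0.14), and the rise was lost without normoxic growth B or either 1 of the hypoxic growth libraries. Hypoxic differentiation against normoxic growth had 7 lower and 3 that did not pass (median -0.90, all genes -0.04), against 27.8% of all genes lower. Pax3 was not tested because it missed 1 FPKM in every group.

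MEF2 factors bind beside the 4 factors at muscle promoters and are known to be raised by them. Of 4 genes, 3 were tested. Mef2c stood at 0.0405 and 0.0547 FPKM in normoxic growth, 27.0 and 28.5 in normoxic differentiation, 0.0158 and 0.0167 in hypoxic growth and 0.0141 and 0 in hypoxic differentiation. Like Myf6 it entered the test through normoxic differentiation alone. Mef2a stood at 22 and 25 FPKM in normoxic growth, 101 and 108 in normoxic differentiation, 10.6 and 9.27 in hypoxic growth and 11.1 and 13.5 in hypoxic differentiation (differentiation at 21% oxygen 2.11 ± 0.12, limma adjusted p 1.61e-05). Mef2d rose with differentiation at 21% oxygen, from 18.7 and 20.0 to 40.4 and 40.9 FPKM (1.03 ± 0.07, adjusted p 3.84e-05), and unlike Mef2a it rose with hypoxia in growth medium, to 29.2 and 31.0 FPKM (0.61 ± 0.07, adjusted p 0.00113).

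Chromatin cofactors, 18 enzymes and complex subunits known to work with or against the 4 factors, were all tested. Hypoxia in growth medium lowered 9 of the 18 and raised 1 (median -0.44, all genes -0.14), where 28.0% of all tested genes were lower and 13.5% higher, with 6 lower after upper-quartile scaling and 12 lower without either 1 of the hypoxic differentiation libraries. Smarcd3, which encodes the BAF60c subunit that works with MyoD, stood at 65.1 and 53.5 FPKM in normoxic growth, 33.9 and 34.7 in normoxic differentiation, 27.1 and 29.1 in hypoxic growth and 15.1 and 14.3 in hypoxic differentiation (against normoxic growth -1.94 ± 0.11, limma adjusted p 2.9e-05). Setd7, a methyltransferase that works with MyoD, was 22.3 and 25.3 FPKM in normoxic and 10.6 and 11.3 in hypoxic growth (-1.05 ± 0.10, adjusted p 0.000373). Ezh2, the methyltransferase of H3K27, was 9.17 FPKM in hypoxic differentiation A and 23.3 in B, against 7.07 and 7.08 in normoxic differentiation, a gap between replicates in the same direction as the cell cycle genes.

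Muscle target genes, 23 genes that the 4 factors are known to switch on directly or through MEF2, were all tested. Cav3 and Dok7 entered through normoxic differentiation alone, so their difference from that group was fixed by the filter, and comparisons with it are counted over the 21 other genes. Differentiation at 21% oxygen raised 19 of the 21 and lowered 1 (median change 5.04, all genes -0.20), where 25.5% of all tested genes were higher and 41.0% lower. Hypoxia in differentiation medium lowered all 21 (median -6.83, all genes 0.15), where 27.7% of all genes were lower. With hypoxic differentiation A left out, not every gene of the list passed as lower, in a count that still held Cav3 and Dok7. Myl1, a fast myosin light chain, stood at 6.09 and 3.39 FPKM in normoxic growth, 3630 and 3580 in normoxic differentiation, 0.713 and 0.0839 in hypoxic growth and 2.13 and 1.67 in hypoxic differentiation. Rapsn, which clusters acetylcholine receptors, was the gene that fell at 21% oxygen, from 76.7 and 59.6 to 31.0 and 27.7 FPKM (-1.18 ± 0.19, limma adjusted p 0.00148).

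Growth medium already separated the oxygen levels in the muscle target genes: hypoxia lowered 20 of the 23 and raised 1 (median -1.64, all genes -0.14), against 28.0% lower and 13.5% higher over all genes. The acetylcholine receptor subunit Chrng stood at 30.3 and 24.7 FPKM in normoxic and 0 and 0.0597 in hypoxic growth (-4.79 ± 0.11, limma adjusted p 3.05e-06). The gene that rose was Cdkn1a, an inhibitor of cell division that MyoD is known to raise, with 64.4 and 55.3 FPKM in normoxic growth, 947 and 984 in normoxic differentiation, 242 and 241 in hypoxic growth and 257 and 364 in hypoxic differentiation (2.00 ± 0.16, adjusted p 0.000267). It was the muscle target gene that hypoxic differentiation held above normoxic growth, where 15 were lower (median -0.95, all genes -0.04), against 27.8% of all genes. With differentiation at 2% oxygen 11 of the 23 rose and 12 did not pass (median 0.40, all genes 0.07), against 23.3% higher over all genes, Mylpf from 1.06 and 1.12 to 6.12 and 3.23 FPKM among them. That count was 7 without normoxic differentiation B, 6 and 5 without hypoxic growth A and B, and 14 with 2 lower without hypoxic differentiation B.

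Across the 8 libraries the factors were compared with every other named gene by Pearson's r of log2(FPKM + 1), given as a description over 4 groups that fix most of the pattern. Myod1 and Myf5 had r of 0.956 with each other, and Myf6 and Myog 0.965, while Myod1 and Myog had 0.727. The genes most like Myog were Actc1, cardiac actin (r 0.9992), and Mylpf, a fast myosin light chain (0.9986), followed by Pdlim3, Frmpd1 and Emc2. Actc1 stood at 6.59 FPKM on average in normoxic growth, 1203 in normoxic differentiation, 0.254 in hypoxic growth and 2.31 in hypoxic differentiation, which is the order of Myog. Those most like Myf5 were Musk, the receptor kinase of the neuromuscular synapse (0.9952), Myo18a, Idh3g and Eif4e2. Those most like Myod1 were Bcat2, a transaminase of branched-chain amino acids (0.9954), Tubb2b, Psmb10, Srgn and Exoc3l4. For Myf6 they were Helz2, Diexf, Tbx15, Ddx51 and Prepl (0.9944 to 0.9966), genes with 1 high group as in Myf6. Of 11616 genes compared, 386 had r of at least 0.9 with Myod1, 571 with Myf5, 1217 with Myf6 and 1281 with Myog.

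The nearest protein-coding genes on each side of the factors, by their order in the GRCm38 gene table, show which levels moved beside them. Myf5 and Myf6 neighbour each other on chromosome 10, and yet the level of Myf5 exceeded that of Myf6 in every library. Their outer neighbours Lin7a and Ptprq stayed under 1 FPKM in all libraries and were not tested. Beside Myog on chromosome 1, Ppfia4, a liprin, stood at 0.18 and 0.229 FPKM in normoxic growth, 17.5 and 17.7 in normoxic differentiation, 0.0165 and 0.0175 in hypoxic growth and 0.242 and 0.337 in hypoxic differentiation. Ppfia4 entered the test through normoxic differentiation alone, so its fitted change with differentiation at 21% oxygen, 3.95 ± 0.09, is a description. At 2% oxygen its change was 0.34 ± 0.09 (limma adjusted p 0.0245), with all values under 1 FPKM. Adora1, on the other side, was listed between 0 and 0.0329 FPKM except in normoxic differentiation, where it stood at 0.678 and 0.593.

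Beside Myod1 on chromosome 7, Otog, which encodes otogelin of the inner ear, stood at 0.176 and 0.126 FPKM in normoxic growth, 7.73 and 7.74 in normoxic differentiation, 0.0197 and 0.0312 in hypoxic growth and 0.153 and 0.159 in hypoxic differentiation. Its fitted change with differentiation at 21% oxygen, 2.92 ± 0.08, is likewise a description, because Otog reached the filter in normoxic differentiation only. The change of Myod1 in that comparison was 0.52 and did not pass. Kcnc1, a potassium channel on the other side, was untested, with 0.707 and 0.846 FPKM in normoxic differentiation and at most 0.0327 elsewhere. Otog, Ppfia4, Adora1, Kcnc1 and Lin7a were highest in normoxic differentiation, and Otog and Ppfia4 entered the test through that group alone. Ptprq was not, with 0.147 and 0.235 FPKM there against 0.299 and 0.447 in normoxic growth. The share of all genes that were highest in normoxic differentiation was not counted, so the order of these neighbours is a description.

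**Figure D5:**
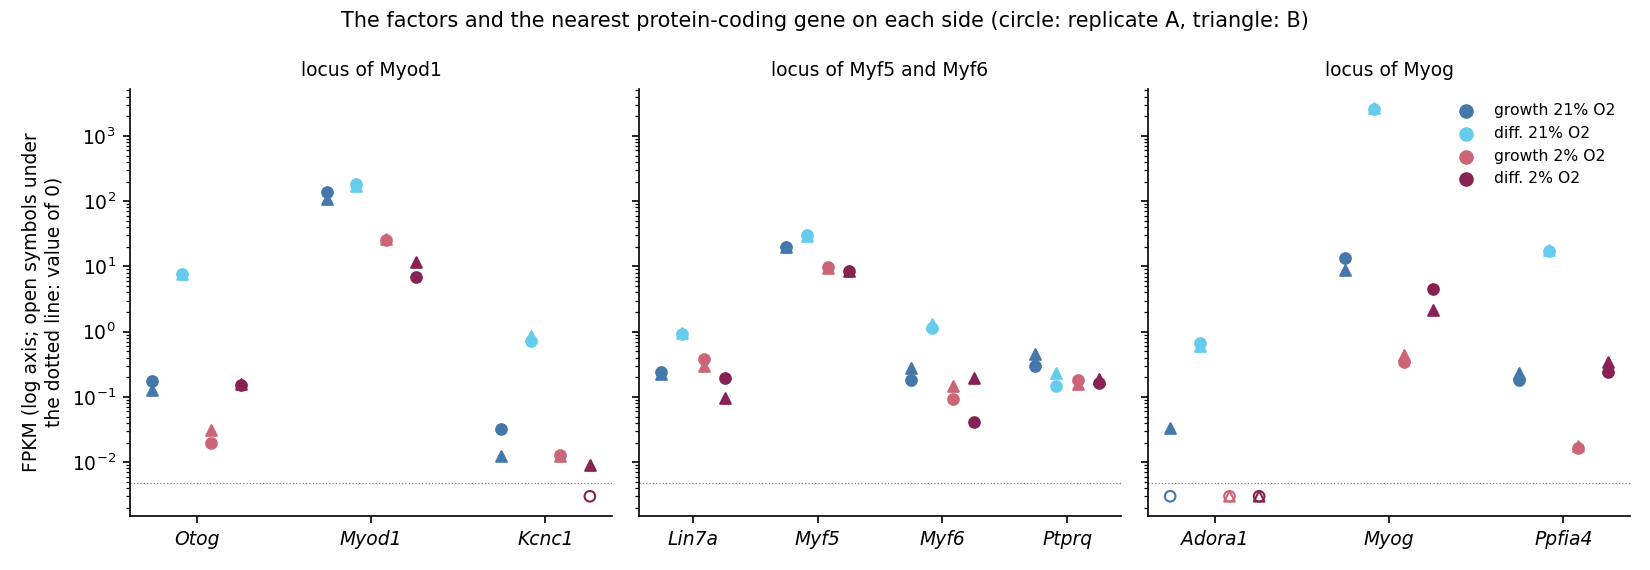
FPKM (log axis) per library of each factor and the nearest protein-coding gene on each side, in gene order, with circles for replicate A, triangles for B and open symbols under the dotted line for 0. Otog, Kcnc1, Lin7a, Adora1 and Ppfia4 are highest in normoxic differentiation and Ptprq is not, and Ppfia4 lies at 17.5 and 17.7 FPKM there.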

How the data were processed

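RNA-seq libraries of C2C12 cells (4 groups of 2) were read from the gene table of FPKM values that the authors deposited. Per the submitters' processing notes STAR 2.5.1b, Cufflinks 2.2.1 and mm9 were used, and per the labels' protocols the libraries were stranded total RNA. Annotation, use of strand in counting and scaling between libraries are not given in the sources used here, so reads of a gene and of an antisense partner cannot be told apart. Columns were assigned to RNA-seq samples by the medium, oxygen and letter in the titles.

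Of 24043 genes, 17914 were above 0 in some library. The 12389 with a group mean of at least 1 FPKM were fitted on log2(FPKM + 1) with limma 3.58.1 (R 4.3.3, variance trend, two-sided tests, 4 residual and 2.61 prior degrees of freedom), all 8 libraries together, no replicate block. On data drawn with 200 genes changed among 12389 for differentiation at 21% oxygen, the fit recovered 77% of changes of 1 and 99% of changes of 3 on the log2 scale, with 7 false calls. The drawn data had normal noise of equal spread in all groups and few changed genes, against 66.5% called in the real comparison. Their rates therefore do not carry over to the calls given here. Fragments were recovered from FPKM where values under 5000 fragments were whole multiples of 1 step within 0.02. The largest distance from a whole number was 0.0085 in Myod1, 0.0013 in Myf5, 0.00011 in Myf6 and 0.00058 in Myog. Absolute depth is unknown.

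Members and gene lists were chosen with earlier results of these data known. Named list genes are, per list and comparison, up to 2 with the largest rise and up to 2 with the largest fall among those that passed, plus every gene of lists of 4 or fewer. Pax7 is also given outside the comparison that named it, some genes the rule names are not reported here, and the 5 genes most like each factor were named by Pearson's r. Alternatives were another pseudocount (0.1), no filter, 2 scalings, array weights, a replicate block, separate fits and each library left out. For the list counts they were chosen after seeing the data.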

Additional observations from a re-analysis of the deposited data

Results flagged for a closer look

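The effect of differentiation medium differed between 21% and 2% oxygen in Myog, Myod1 and Myf5 by the interaction term of limma, which tests the difference itself. That term passed in 54.1% of all tested genes, 35.4% above 0 and 18.7% below 0. By size it ranked 41st of 12389 for Myog, 1137th for Myod1 and 5434th for Myf5. The term, on the log2(FPKM + 1) scale, was -6.20 for Myog, with the 2 groups of differentiation medium at 2609 and 3.32 FPKM, and -5.18 with a pseudocount of 0.1 FPKM. It was -1.92 for Myod1, whose mean went from 123.4 to 176.0 FPKM at 21% oxygen and from 25.6 to 9.38 at 2%. It was -0.73 for Myf5, from 19.97 to 29.9 and from 9.72 to 8.51 FPKM. The fitted term of Myf6, -0.86, is given as a value only, because Myf6 entered the test through normoxic differentiation alone, and each hypoxic library held 3 fragments or fewer.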

How the results depend on the processing

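Of 18 tests (Myod1, Myf5 and Myog in 6 comparisons) with 267 alternative values, 261 kept direction and side of the threshold, and 17 tests did so under every alternative that was run. Myf6, which entered through normoxic differentiation alone, is not counted. Myod1 with differentiation at 21% oxygen came to pass with median-of-ratios factors (0.79, adjusted p 0.00832), upper-quartile factors (0.65, adjusted p 0.0182), array weights (0.52, 0.00943) and only the libraries compared (0.52, 0.013) and without either hypoxic differentiation library, and ran from 0.34 to 0.70 over the libraries left out. Myf6 with differentiation at 2% oxygen turned from -0.01 to 0.03 without hypoxic growth B and 0.095 without hypoxic differentiation A (range -0.10 to 0.09, 1 to 3 fragments per library). Its mean share in hypoxic growth was 0.334%, and 0.203% with values under 3 fragments set to 0. A library left out leaves a group of 1 that is assumed to vary like the others. Genes that passed with differentiation at 2% oxygen numbered 5073, from 2501 to 6529 over the libraries left out (2688 and 2501 without hypoxic growth A and B) and 3034 with only the libraries compared. For hypoxia in growth medium they numbered 5135, from 2997 to 6844 (2997 and 3083 without hypoxic growth A and B). For hypoxic differentiation against normoxic growth they numbered 6021, and 3696 with only the libraries compared. These alternative fits hold fewer libraries, and the cause of the shifts in number was not tested. The letters A and B were not used to pair the samples in the main fit. Differences of A minus B correlated at -0.166 to 0.042 between groups, so no shared effect of the letter was seen over all tested genes. A shared effect in a part of the genes was not tested. These values cannot tell whether the cultures were handled in pairs. With the letter as a replicate block, Myod1 with differentiation at 21% oxygen had adjusted p 0.103 and the genes that passed with differentiation at 21% oxygen numbered 7931 in place of 8241, and no call of a factor changed. Depth limits Myf6 the most, and Myog in hypoxic growth.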
